A study of Mus musculus with 6 samples.

Results

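The 10 genes described here are proteases and markers of mast cells: the chymase genes Mcpt4 and Cma1, the carboxypeptidase gene Cpa3, the tryptase genes Tpsb2 and Tpsab1, the histamine synthesis gene Hdc, the receptor genes Kit, Fcer1a and Ms4a2, and the transcription factor gene Gata2. They are 10 of the 30462 genes in the deposited table and were chosen by name with the knockout and wild-type values known. Their values between genotypes are therefore given as a description, with no test. Levels were measured by RNA-seq of cochleae, the spiral hearing organ of the inner ear, of mice at postnatal day 7. There are 3 libraries labelled Neu4 knockout (numbered 2, 4 and 5). Neu4 is the gene of a sialidase, which trims terminal sialic acids off glycans. The knockout-labelled libraries were set against 3 libraries labelled wild type (numbered 3, 4 and 5). The sources used here do not give the strain, the allele, the number of animals per library or whether each library is a separate animal, so the errors below measure the spread between these libraries, which may be technical.

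Mast cells are resident immune cells of connective tissue and mucosa that arise from haematopoietic progenitors. They depend on stem cell factor, which binds the receptor KIT, and are armed by immunoglobulin E bound to its high-affinity receptor, FcεRI. Their granules store histamine, proteoglycans and large amounts of a few proteases: chymases, tryptases and carboxypeptidase A3. In the mouse, cells with both chymases and tryptases are the connective tissue type.

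In the libraries labelled knockout the granule protease mRNAs were low, and the mRNAs for KIT and GATA2 were near their wild-type levels. Fcer1a and Ms4a2, which define the mast cell surface receptor, gave at most 5 fragments in any library. The label "mast cell" therefore rests here on the protease genes. Values are in FPKM, sequenced fragments scaled by exon length and by the size of the library, so that levels of different genes can be set side by side. For each member the FPKM times the exon length was a whole number of fragments, and these recovered fragments are given where the depth matters.

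Promoters of the 3 protease genes that have an entry in the RefSeq promoter table (8 of the 10 members have one) are printed first, because GATA2 is known as a factor acting at mast cell genes and these genes were low together. Each runs 5′ to 3′ on the gene's strand over the 250 bases before the annotated start, build GRCm38.p6. Capitals mark the GATA motif letters AGATAA or TGATAA (searched on both strands, so also TTATCT and TTATCA) and the TATA box letters TATAAA (gene strand only), and the 2 motifs do not overlap in these promoters. The positions are chr14:56062311-56062560 for Mcpt4, chr14:55944676-55944925 for Cma1 and chr3:20242182-20242431 for Cpa3, all on the minus strand.
Mcpt4: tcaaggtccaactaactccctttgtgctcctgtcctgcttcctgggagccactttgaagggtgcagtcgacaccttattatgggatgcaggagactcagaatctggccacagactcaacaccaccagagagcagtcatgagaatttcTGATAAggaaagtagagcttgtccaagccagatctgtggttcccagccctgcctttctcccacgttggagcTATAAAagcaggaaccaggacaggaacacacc
Cma1: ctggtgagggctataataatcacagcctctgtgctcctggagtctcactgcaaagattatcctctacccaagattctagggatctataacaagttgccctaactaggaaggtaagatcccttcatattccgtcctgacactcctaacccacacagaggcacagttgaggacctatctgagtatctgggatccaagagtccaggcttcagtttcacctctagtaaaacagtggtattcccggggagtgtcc
Cpa3: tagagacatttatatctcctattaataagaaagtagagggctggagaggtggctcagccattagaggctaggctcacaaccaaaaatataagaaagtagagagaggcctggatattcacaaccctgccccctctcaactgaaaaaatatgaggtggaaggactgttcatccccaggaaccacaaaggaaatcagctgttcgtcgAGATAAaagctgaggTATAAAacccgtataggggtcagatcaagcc
The Mcpt4 promoter held TGATAA 103 bases and TATAAA 32 bases before the start. That of Cpa3 held AGATAA 46 bases and TATAAA 31 bases before the start, and that of Cma1 held neither. Of the 8 members with an entry, 4 had a GATA match (Mcpt4, Cpa3, Fcer1a and Ms4a2, which had 3). Of all 32817 promoter windows of this length, 16.6% held a GATA match and 7.60% the TATA letters. A match describes the letters only.

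Of the 10 members, 6 were lower in all 3 knockout libraries than in any wild-type library: the 5 protease genes and Hdc. Among all genes measured, 6.26% were lower in this way and 9.70% higher; since the members were chosen on this contrast, nothing is read from their count. The other 4 members (Kit, Gata2, Ms4a2 and Fcer1a) overlapped between the genotypes. On the log2(FPKM + 1) scale, which understates the change of low genes, the median fold change was -1.28 over the 5 protease genes and -0.33 over the 10 members, beside 0.02 over the 14072 genes with at least 1 FPKM in at least 3 libraries.

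Mcpt4 (ENSMUSG00000061068, chr14:56059629-56062313, minus strand) encodes mast cell protease 4, the main chymase of mouse connective tissue mast cells, which cleaves proteins after aromatic residues. It had 2.17, 2.13 and 4.82 FPKM in knockout libraries 2, 4 and 5, against 12.0, 13.4 and 11.9 FPKM in wild-type libraries 3, 4 and 5. All knockout libraries were far below all wild-type libraries, and knockout 5 was the highest of the 3. The means were 3.04 ± 1.54 FPKM in knockout and 12.4 ± 0.868 FPKM in wild type (SD, n = 3 each), 4.09-fold lower in knockout. The log2(FPKM + 1) fold change was -1.80 (SE 0.23), and 10 of the 14072 genes, Mcpt4 among them, had one that low or lower. The values rest on 40, 40 and 81 fragments in knockout and 220, 256 and 210 in wild type.

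Cma1 (ENSMUSG00000022225, chr14:55941451-55944675, minus strand) is the mouse alpha-chymase gene, a neighbour of Mcpt4 in the same protease locus. It had 2.15, 2.60 and 4.29 FPKM in knockout 2, 4 and 5, against 6.89, 9.39 and 9.59 FPKM in wild type 3, 4 and 5. The groups did not overlap, with knockout 5 nearest to wild type and wild type 3 nearest to knockout. Means were 3.01 ± 1.13 FPKM in knockout and 8.62 ± 1.503 FPKM in wild type (SD, n = 3 each), 2.86-fold lower in knockout.

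Cpa3 (ENSMUSG00000001865, chr3:20215620-20242181, minus strand) encodes carboxypeptidase A3, an exopeptidase stored with the chymases. It had 1.38, 1.67 and 2.65 FPKM in knockout 2, 4 and 5, against 4.39, 5.98 and 5.57 FPKM in wild type 3, 4 and 5. Again knockout 5 was the highest of the knockout libraries, wild type 3 was the lowest of the wild-type ones, and the groups did not overlap. The mean of 1.90 ± 0.663 FPKM in knockout was 2.79-fold below the 5.31 ± 0.825 FPKM in wild type (SD, n = 3 each). Cpa3 lies on another chromosome than the chymase and tryptase genes.

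Tpsb2 (ENSMUSG00000033825, chr17:25366305-25369098, plus strand) encodes a tryptase, a trypsin-like protease held as a tetramer on granule heparin. It had 0.979, 2.08 and 4.05 FPKM in knockout 2, 4 and 5, against 6.92, 7.55 and 7.81 FPKM in wild type 3, 4 and 5. The knockout libraries spread more widely than for any of the 3 genes above relative to their mean, and all lay below the wild-type libraries. Means were 2.37 ± 1.56 FPKM in knockout and 7.43 ± 0.461 FPKM in wild type (SD, n = 3 each), 3.13-fold lower in knockout.

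Tpsab1 (ENSMUSG00000024173, chr17:25343245-25345562, minus strand), the second tryptase gene, was near the limit of detection. It gave 2, 0 and 1 fragments in knockout 2, 4 and 5, against 14, 12 and 16 fragments in wild type 3, 4 and 5. Every wild-type library was above every knockout library. The summed 3 fragments in knockout against 42 in wild type correspond to a depth-corrected ratio of 0.0728 (exact 95% interval 0.0144 to 0.228, counting error only). Of the 1636 and 2187 windows of 50 bases in the Tpsb2 and Tpsab1 transcripts, 0 were shared with another gene.

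**Figure D1:**
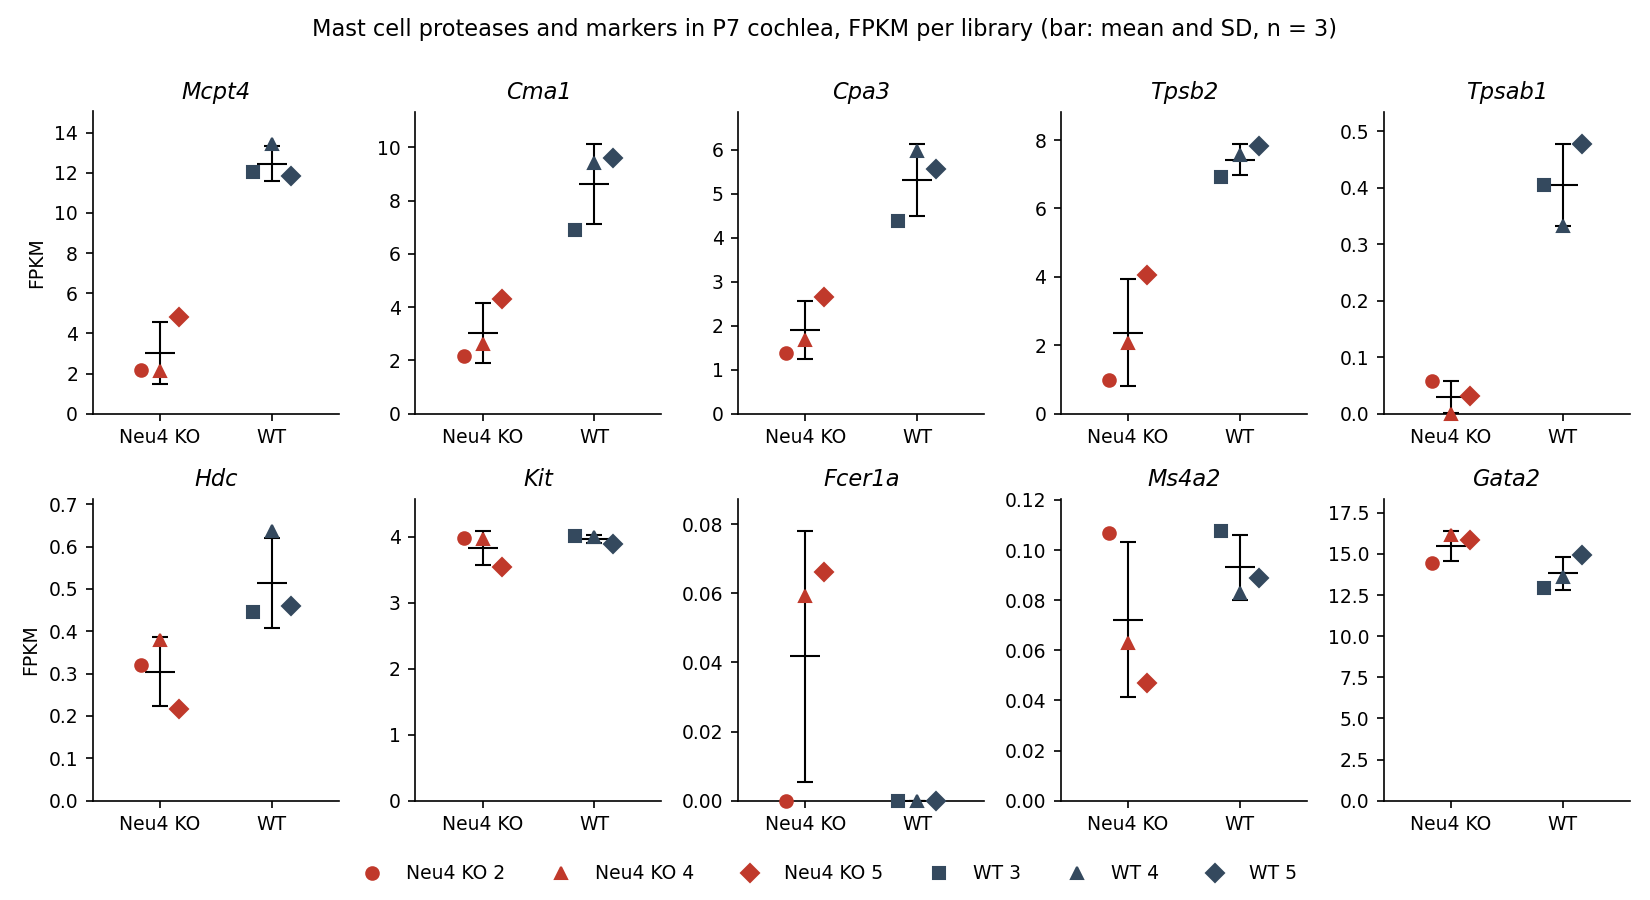
FPKM of the 10 members (vertical axes, linear and from 0, a scale of its own for each gene) in the 3 Neu4 knockout libraries (left, red) and the 3 wild-type libraries (right, blue); symbols are libraries, bars are the mean and SD. The groups are apart for the 5 protease genes and Hdc, knockout 5 is the highest knockout library for Mcpt4, Cma1, Cpa3 and Tpsb2, and the groups overlap for Kit, Fcer1a, Ms4a2 and Gata2.

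Together the 5 protease genes summed to 6.74, 8.49 and 15.8 FPKM in knockout 2, 4 and 5, against 30.6, 36.7 and 35.3 FPKM in wild type 3, 4 and 5. The mean sum of 10.4 ± 4.84 FPKM in knockout was 3.30-fold below the 34.2 ± 3.18 FPKM in wild type (SD, n = 3 each). Without knockout 5 the median log2 fold change of the 5 genes was -1.50 in place of -1.28. In bulk RNA, fewer mast cells and less protease mRNA per mast cell cannot be told apart.

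Cma1 and Cpa3, on different chromosomes, had similar ratios in the 6 libraries, as far as counting error allows. Cma1 was 1.55, 1.55 and 1.62 times the Cpa3 level in knockout 2, 4 and 5, against 1.57, 1.57 and 1.72 times in wild type 3, 4 and 5. That ratio averaged 1.57 ± 0.0391 in knockout and 1.62 ± 0.0878 in wild type (SD, n = 3 each), with overlapping groups. The knockout ratios rest on 35 to 71 fragments per gene, with exact 95% counting intervals of 0.957 to 2.52 in knockout 2, 1.01 to 2.40 in knockout 4 and 1.13 to 2.32 in knockout 5. Leaving out each library in turn kept its overall mean between 1.57 and 1.61.

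The ratio of Mcpt4 to Cpa3 varied more. It was 1.56, 1.27 and 1.82 in knockout 2, 4 and 5, against 2.74, 2.25 and 2.13 in wild type 3, 4 and 5, so the groups did not overlap. The counting intervals of single libraries are wide, however: 1.29 to 2.58 in knockout 5 and 1.71 to 2.66 in wild type 5. Mcpt4 made up 32.2%, 25.1% and 30.4% of the protease sum in knockout 2, 4 and 5, against 39.3%, 36.6% and 33.6% in wild type 3, 4 and 5.

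For Tpsb2 the ratio to Cpa3 was 0.707, 1.24 and 1.53 in knockout 2, 4 and 5, against 1.57, 1.26 and 1.40 in wild type 3, 4 and 5. Knockout 2 was the lowest, knockout 4 lay just below the lowest wild-type ratio, and knockout 5 lay within the wild-type range. Tpsab1 was at 0.0922, 0.0557 and 0.0859 of Cpa3 in wild type 3, 4 and 5, where it had enough fragments for a ratio.

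**Figure D2:**
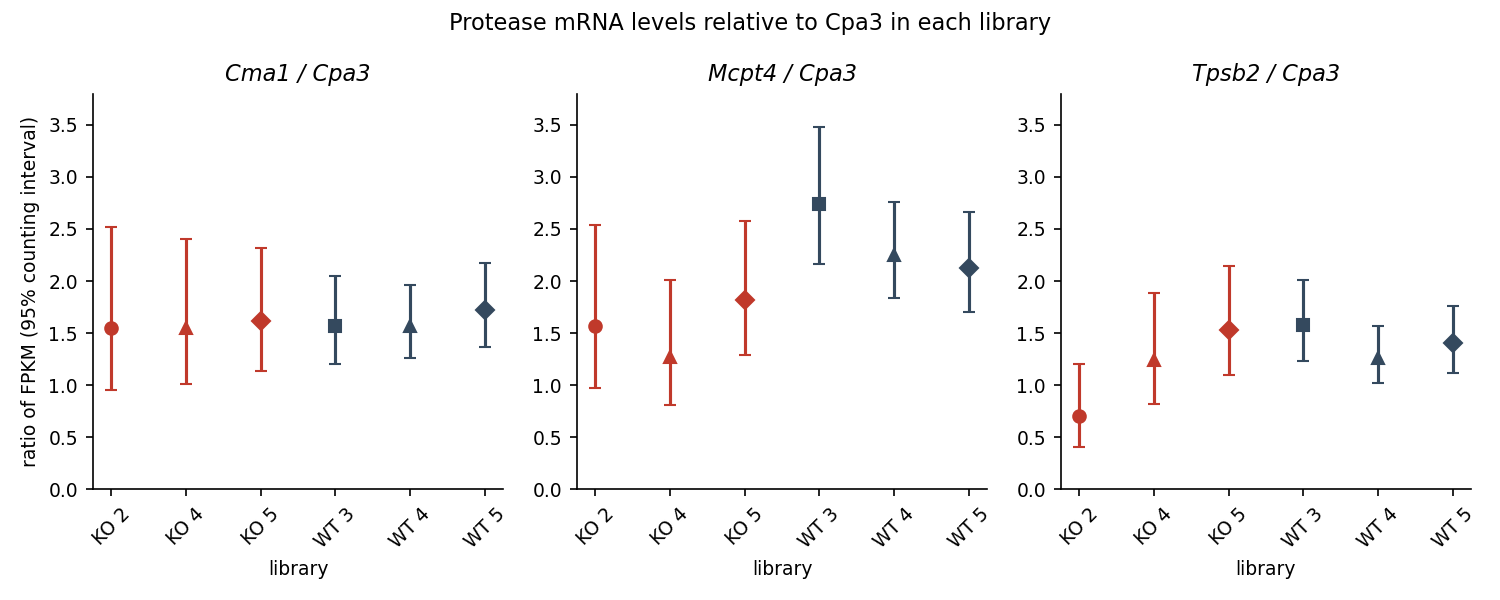
Ratio of the FPKM of Cma1, Mcpt4 and Tpsb2 to that of Cpa3 (vertical axis, linear) in each library, Neu4 knockout left (red) and wild type right (blue); bars are exact 95% counting intervals from the fragments of both genes. Cma1 to Cpa3 lies between 1.55 and 1.72 in all 6 libraries, Mcpt4 to Cpa3 is at most 1.82 in knockout and at least 2.13 in wild type, and knockout 2 is low for Tpsb2.

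Hdc (ENSMUSG00000027360, chr2:126593667-126619299, minus strand) encodes histidine decarboxylase, the enzyme that makes histamine; it also acts in basophils, some neurons and gastric cells. It had 0.319, 0.379 and 0.217 FPKM in knockout 2, 4 and 5, against 0.446, 0.637 and 0.460 FPKM in wild type 3, 4 and 5. The groups were apart by little, since the lowest wild-type value was 1.18 times the highest knockout value, and knockout 5 was here the lowest library. The summed 96 fragments in knockout against 164 in wild type gave a ratio of 0.596 (exact 95% interval 0.459 to 0.772, counting error only).

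Kit (ENSMUSG00000005672, chr5:75574916-75656722, plus strand) encodes the receptor tyrosine kinase for stem cell factor, on mast cells and also on melanocytes and their strial relatives. It had 3.99, 3.97 and 3.54 FPKM in knockout 2, 4 and 5, against 4.004, 3.99 and 3.89 FPKM in wild type 3, 4 and 5. The groups overlapped, with means of 3.83 ± 0.256 FPKM in knockout and 3.96 ± 0.0619 FPKM in wild type (SD, n = 3 each). Its log2(FPKM + 1) fold change was -0.04 (SE 0.06).

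Fcer1a (ENSMUSG00000005339, chr1:173221284-173227214, minus strand) encodes the immunoglobulin E-binding alpha chain of FcεRI. It gave 0, 1 and 1 fragments in knockout 2, 4 and 5, against 0 in each wild-type library. A count of 0 allows up to 3 fragments, or 0.182, 0.175 and 0.188 FPKM in wild type 3, 4 and 5, so no fold is given. Ms4a2 (ENSMUSG00000024680, chr19:11615523-11623719, minus strand), the beta chain gene, gave 5, 3 and 2 fragments in knockout 2, 4 and 5, against 5, 4 and 4 in wild type 3, 4 and 5. The groups overlapped, and the summed 10 against 13 fragments gave a ratio of 0.784 (exact 95% interval 0.308 to 1.94, counting error only). That interval holds no difference and, near its lower end, the fragment ratio of Cma1 (0.345).

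Gata2 (ENSMUSG00000015053, chr6:88193891-88207032, plus strand) encodes a zinc finger factor that mast cells need, and that endothelium and the developing inner ear also express. It had 14.4, 16.2 and 15.8 FPKM in knockout 2, 4 and 5, against 12.9, 13.6 and 14.9 FPKM in wild type 3, 4 and 5. Knockout 2 lay below wild type 5, so the groups overlapped. Means were 15.5 ± 0.926 FPKM in knockout and 13.8 ± 1.02 FPKM in wild type (SD, n = 3 each), with a log2(FPKM + 1) fold change of 0.15 (SE 0.07).

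By mean level the order in knockout was Gata2, Kit, Mcpt4, Cma1, Tpsb2, Cpa3, Hdc, Ms4a2, Fcer1a and Tpsab1, against Gata2, Mcpt4, Cma1, Tpsb2, Cpa3, Kit, Hdc, Tpsab1, Ms4a2 and Fcer1a in wild type. In knockout the neighbours Kit, Mcpt4, Cma1, Tpsb2 and Cpa3 each overlapped with the next in the order. So did Ms4a2, Fcer1a and Tpsab1 at its low end. In wild type Gata2 overlapped with Mcpt4, Cma1 with Tpsb2, and Hdc with Tpsab1. Kit, below each of the 4 main proteases in wild type, was thus second in knockout.

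**Figure D3:**
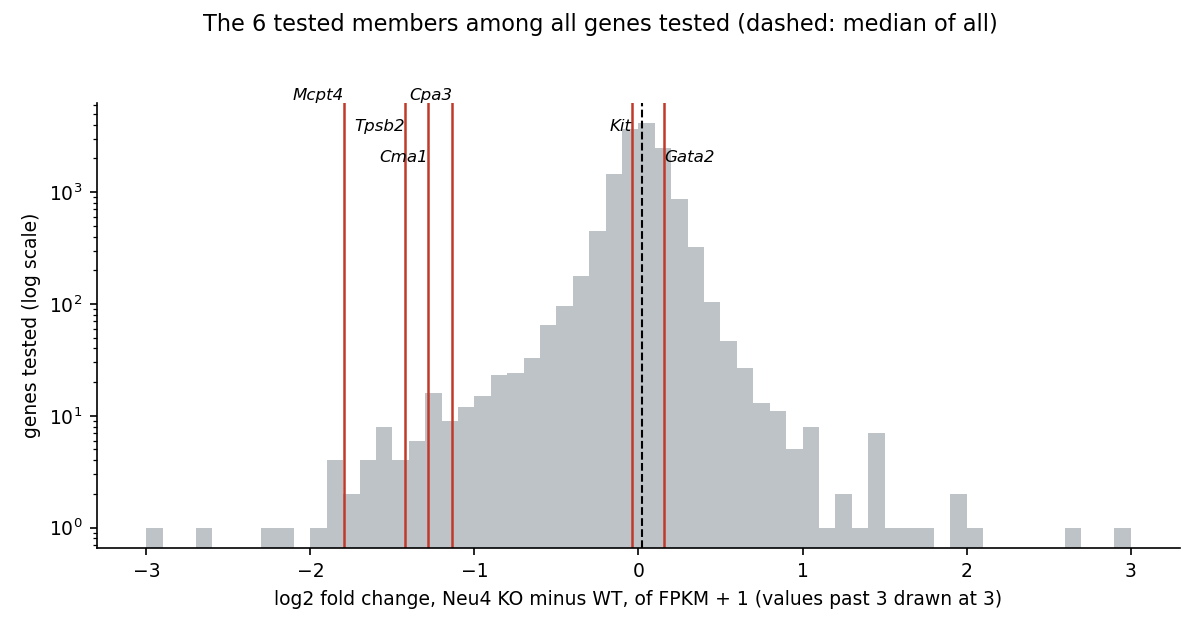
Number of tested genes (vertical axis, log scale) by log2 fold change of FPKM + 1, Neu4 knockout minus wild type (horizontal axis), for 14072 genes; red lines are the 6 members with enough signal and the dashed line is the median of all genes. Mcpt4, Tpsb2, Cma1 and Cpa3 lie in the low tail, between -1.80 and -1.14, while Kit (-0.04) and Gata2 (0.15) lie near the median of 0.02.

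Over all genes, limma on log2(FPKM + 1) with Benjamini-Hochberg adjustment called 47 of the 14072 genes (0.334%), of which 29 (0.206%) were lower and 18 (0.128%) higher in knockout, or 37 lower and 11 higher after median-ratio scaling. Of the 10 members 6 passed the filter on low values: Tpsb2 with at least 1 FPKM in 5 libraries, and Mcpt4, Cma1, Cpa3, Kit and Gata2 in all 6. Mcpt4 was the 1 member among the called genes. Since the contrast chose the members, nothing is read from this. The libraries held 15170973 to 17192293 fragments. The targeted gene does not check the labels: Neu4 gave 4, 8 and 6 fragments in knockout 2, 4 and 5 and 4, 8 and 6 fragments in wild type 3, 4 and 5. Cochlear genes were present, with Tectb (a tectorial membrane protein) at 110.6 ± 9.39 FPKM in knockout and 95.2 ± 1.21 FPKM in wild type, while the outer hair cell motor gene Slc26a5 was at most 0.215 FPKM in any library.

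Sex was not balanced. By Xist and Y-linked genes knockout 2 and wild type 3 and 4 were male, and knockout 4 and 5 and wild type 5 were female. Within males Mcpt4 was 5.88-fold, Cma1 3.79-fold, Cpa3 3.75-fold and Tpsb2 7.39-fold lower in knockout. Within females the same genes were 3.41-fold, 2.78-fold, 2.57-fold and 2.55-fold lower in knockout. The 5 protease genes and Hdc were lower without overlap in both sexes, which follows from their split over all 6 libraries and adds nothing to it. With 1 library against 2 in each sex, no test within a sex was made.

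Other genes known for mast cells were read from 5 lists of 47 genes, of which 42 were in the table and 23 had enough signal to test. With limma 0 of the 23 were called (3 at an unadjusted p under 0.05, beside 17.6% of all genes tested, and 1, Meis2, with limma's voom on the recovered fragments). Of the 23, 10 were lower and 13 higher in knockout, and their median log2 fold change was 0.02, the same as that of all genes. Among all 42, 4 were lower and 5 higher without overlap, beside 6.26% lower and 9.70% higher among all genes measured, so these counts are near the background and are not read as a result about mast cell genes.

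Genes of the granule and of signalling that many haematopoietic cells share had similar means in the genotypes. Srgn, the serglycin core protein that holds proteases in granules, had 10.7 ± 0.799 FPKM in knockout and 10.01 ± 0.711 FPKM in wild type (SD, n = 3 each). Fcer1g, the gamma chain shared by several Fc receptors, had 23.9 ± 2.41 FPKM in knockout and 23.1 ± 1.69 FPKM in wild type. Ndst2, a heparin-modifying enzyme, had 16.7 ± 0.334 FPKM in knockout and 16.6 ± 0.181 FPKM in wild type. The tetraspanin Cd63, the kinases Syk and Btk, and the prostaglandin enzymes Ptgs1 and Hpgds also overlapped between the genotypes.

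Of the 4 genes lower without overlap, 3 are typical of mast cells and were at few fragments, and their values are given as a description; they are named after their values were seen. Mcpt2, a mucosal mast cell chymase, gave 0, 1 and 0 fragments in knockout 2, 4 and 5, against 4, 7 and 1 in wild type 3, 4 and 5. Tpsg1, a membrane-anchored tryptase, gave 0, 0 and 1 fragments in knockout 2, 4 and 5, against 3, 2 and 6 in wild type 3, 4 and 5. Mrgprb2, a receptor through which basic peptides and drugs activate mouse mast cells, gave 3, 0 and 3 fragments in knockout 2, 4 and 5, against 7, 20 and 7 in wild type 3, 4 and 5. In each of the 3 genes the knockout libraries had at most 3 fragments.

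Of the other transcription factors, Meis2 was the remaining gene lower without overlap, at 1.59 ± 0.406 FPKM in knockout and 2.71 ± 0.416 FPKM in wild type (SD, n = 3 each; limma adjusted p = 0.146). Mitf, needed by mast cells and melanocytes, was higher without overlap but not called, at 2.97 ± 0.105 FPKM in knockout and 2.45 ± 0.352 FPKM in wild type (limma adjusted p = 0.296). Kitl, the gene for stem cell factor, overlapped at 2.66 ± 0.206 FPKM in knockout and 2.77 ± 0.212 FPKM in wild type. Il33, an alarmin that acts on mast cells, overlapped at 4.03 ± 0.691 FPKM in knockout and 3.95 ± 0.471 FPKM in wild type.

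The chymase and tryptase genes lie in clusters of related proteases, Cma1 115 kb from Mcpt4 and Tpsab1 20.7 kb from Tpsb2. The other genes within 100 kb lay on either side of no difference. Mcpt2, between Cma1 and Mcpt4, and Tpsg1, next to Tpsb2, were lower without overlap, at the few fragments given above. Mcpt2 averaged 0.0186 FPKM in knockout and 0.224 FPKM in wild type, and Tpsg1 0.0158 FPKM in knockout and 0.162 FPKM in wild type. Ctsg, the cathepsin G gene of mast cells and myeloid cells beside Mcpt4, had 1.74, 0.629 and 0.510 FPKM in knockout 2, 4 and 5, against 0.469, 0.732 and 0.303 FPKM in wild type 3, 4 and 5. Its groups overlapped, as did those of Mcpt8 and Gzme, further proteases of that locus. The flanking gene Nynrin was lower without overlap by a small step, at 22.4 FPKM in knockout and 23.9 FPKM in wild type. Of the 50-base windows of the transcripts, 5.48% in Mcpt4 were shared with Cma2 and 5.38% in Cma1 with Gm48934, so a small part of their reads may be split between copies.

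Marker lists of other white cells were read in the same libraries. The macrophage list (11 tested genes) had a median log2 fold change of -0.01 and sums of 340.0 to 354 FPKM in knockout and 338 to 362 FPKM in wild type. The pan-leukocyte list summed to 169 to 196 FPKM in knockout and 175 to 180 FPKM in wild type. Of its 8 tested genes 7 were higher and 1 lower in knockout, with a median log2 fold change of 0.06. Without overlap 4 of the 9 pan-leukocyte genes and 2 of the 11 macrophage genes were higher, and 0 of either list were lower. Among all genes measured, 9.70% were higher and 6.26% lower without overlap. The neutrophil and marrow list went the other way from the proteases, with sums of 92.8 to 162 FPKM in knockout and 36.4 to 97.7 FPKM in wild type. Of its 10 genes 6 were higher and 0 lower without overlap, beside the same 9.70% and 6.26% of all genes measured. Its gene S100a9, a calcium-binding protein of neutrophils, had 51.2 ± 14.9 FPKM in knockout and 19.3 ± 8.40 FPKM in wild type (limma adjusted p = 0.124). Basophils, which share FcεRI and Hdc with mast cells, left few reads: Mcpt8 averaged 0.180 FPKM in knockout and 0.119 FPKM in wild type.

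Kit and Gata2 have other sources in the cochlea. The melanocyte and strial intermediate cell list, which marks Kit outside mast cells, summed to 95.6 to 108 FPKM in knockout and 91.9 to 110.2 FPKM in wild type (median log2 fold change 0.07). The endothelial list, which marks Gata2 outside mast cells, summed to 130.1 to 141 FPKM in knockout and 143 to 156 FPKM in wild type (median -0.12). The endothelial sums did not overlap. Of the 9 endothelial genes 5 were lower and 1 higher without overlap, beside 6.26% and 9.70% of all genes measured. The part of either list in the levels of Kit and Gata2 was not tested.

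Markers of the soft tissue around the cochlea were read beside the proteases, and none was called with limma. In the connective tissue list 9 of 10 tested genes were lower in knockout, the median log2 fold change was -0.20, and the sums overlapped, at 6243, 5753 and 5016 FPKM in knockout 2, 4 and 5, against 5864 to 6789 FPKM in wild type. Knockout 5 had the lowest sum, unlike in the protease sum, but the genes Col1a1 and Col1a2 make up most of this sum. In every other gene of the list knockout 5 was the highest knockout library, as for Mcpt4, Cma1, Cpa3 and Tpsb2. Without overlap 3 genes of the list were lower and 0 higher, beside 6.26% and 9.70% of all genes measured. The most abundant gene of the list, Col1a1, a type I collagen chain, had 3916, 3570 and 2821 FPKM in knockout 2, 4 and 5, against 4306, 4105 and 3522 FPKM in wild type 3, 4 and 5. Its partner chain Col1a2 averaged 1564 ± 151 FPKM in knockout and 1575 ± 93.2 FPKM in wild type (SD, n = 3 each). Both overlapped between the genotypes. Dpt, the dermatopontin gene of dermal and other loose connective tissue, had 5.43, 4.15 and 14.03 FPKM in knockout 2, 4 and 5, against 14.5, 17.2 and 18.04 FPKM in wild type 3, 4 and 5. The groups did not overlap, and knockout 5 was the highest knockout library here, as for Mcpt4, Cma1, Cpa3 and Tpsb2 but not for Col1a1 and Col1a2. Col3a1, the type III collagen gene, had 233 ± 54.2 FPKM in knockout and 350.0 ± 3.29 FPKM in wild type (SD, n = 3 each; limma adjusted p = 0.125).

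The middle ear epithelium list summed to 15.5, 26.4 and 105 FPKM in knockout 2, 4 and 5, against 404, 762 and 412 FPKM in wild type 3, 4 and 5. Its main gene Bpifa1, a secreted airway and middle ear protein, had 0.0777, 8.34 and 93.3 FPKM in knockout 2, 4 and 5, against 336, 608 and 402 FPKM in wild type 3, 4 and 5. The adipocyte list summed to 21.5 to 32.1 FPKM in knockout and 29.6 to 51.1 FPKM in wild type. Its most abundant gene Lpl was higher without overlap, at a mean of 17.5 FPKM in knockout and 14.3 FPKM in wild type. Of its 7 tested genes 6 were lower in knockout, 4 of them without overlap (beside 6.26% of all genes measured), and the median log2 fold change was -0.92. All 7 had an unadjusted p under 0.05 with limma. The skeletal muscle list summed to 33.6 to 246 FPKM in knockout and 136 to 608 FPKM in wild type. All 8 of its tested genes were lower in knockout, 0 without overlap, and the median log2 fold change was -0.999. None of these lists had a marker at 0 in every library. Their part in the low protease levels was not tested. Over all 16 lists, 101 genes were tested and 0 called with limma, with 39 at an unadjusted p under 0.05 and 10 called with voom. Over all genes tested, 17.6% had an unadjusted p under 0.05 and voom called 2.76%.

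**Figure D4:**
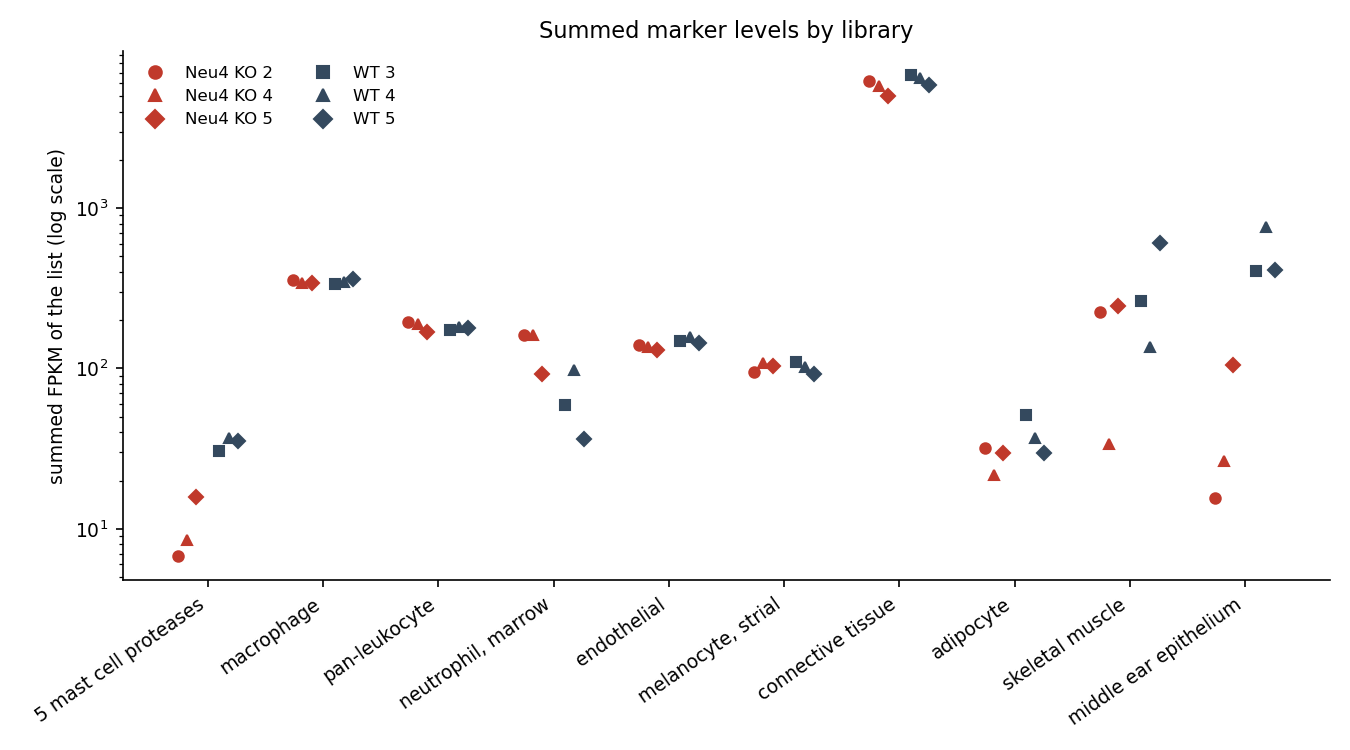
Summed FPKM (vertical axis, log scale) of the 5 mast cell proteases and of 9 marker lists in each library, Neu4 knockout left (red) and wild type right (blue) in each pair. The protease, middle ear epithelium and endothelial sums are lower in every knockout library than in any wild-type library. Knockout 5 is the highest knockout library for the proteases and the middle ear epithelium and the lowest for the endothelial list. The macrophage, pan-leukocyte and melanocyte sums overlap.

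The genes most like the proteases were sought among 227 tested genes that varied by at least 0.5 (SD of log2(FPKM + 1)). Likeness was Pearson's r, over the 6 libraries, to the mean centred profile of Mcpt4, Cma1, Cpa3 and Tpsb2. With 6 libraries in 2 groups a high r is common, and 25 of the 227 had an r of at least 0.95. The 8 highest were Barx1 (r = 0.997), Rtl3 (0.995), Crabp1 (0.990), Cyp2f2 (0.989), Eln (0.987), Tnn (0.983), Cd248 (0.982) and Cbr2 (0.978). All 8 were lower in knockout.

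Barx1, a homeobox factor of craniofacial and foregut mesenchyme, had 0.601, 0.887 and 2.92 FPKM in knockout 2, 4 and 5, against 5.54, 8.52 and 8.09 FPKM in wild type 3, 4 and 5. Knockout 5 was the highest knockout and wild type 3 the lowest wild-type library, the same order as for Cma1 and Cpa3 in those places. Eln, the elastin gene, averaged 61.5 ± 38.0 FPKM in knockout and 203.6 ± 40.4 FPKM in wild type (SD, n = 3 each). Tnn, a tenascin of the extracellular matrix, averaged 5.04 ± 1.51 FPKM in knockout and 16.2 ± 0.648 FPKM in wild type, and was the 1 gene of the 8 called over all genes (limma adjusted p = 0.0163). Cyp2f2, a cytochrome P450 of airway epithelium, averaged 1.41 ± 1.85 FPKM in knockout and 11.5 ± 3.01 FPKM in wild type.

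By the same measure Col3a1 had an r of 0.974, Bpifa1 0.966 and Dpt 0.924, and the muscle actin gene Acta1 0.49. The members Kit and Gata2 had an r of 0.05 and -0.54, and S100a9 one of -0.89. The connective tissue genes Mfap5 and Pi16 had an r of 0.908 and 0.810. All these values share the genotype split on which the members were chosen, so they describe the libraries only.

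**Figure D5:**
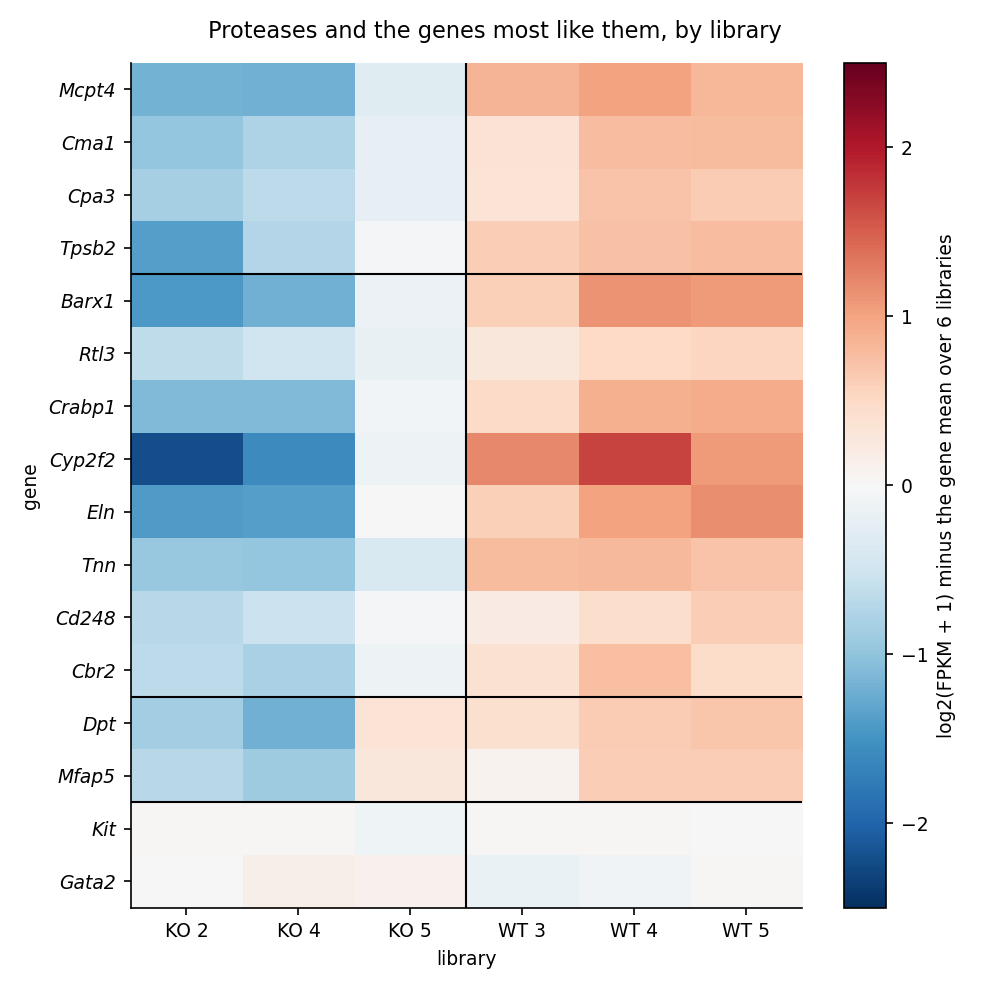
Log2(FPKM + 1) minus the gene's mean over the 6 libraries (colour, red high and blue low) for 4 proteases, the 8 genes most like them, the connective tissue genes Dpt and Mfap5, and Kit and Gata2 (rows), in the Neu4 knockout libraries (left) and wild-type libraries (right). Knockout 5 is nearer to 0 than knockout 2 and 4 for the proteases and the 8 genes, and Kit and Gata2 vary little.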

How the data were processed

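The authors deposited 1 table of FPKM values with 1 column per library, and FPKM values remove depth. The genome build is GRCm38 per the submitters' processing notes; the aligner, the counter and any use of strand were not given in the sources used here. Fragments were recovered from the products of FPKM and exon length (GENCODE M21), of which 98.3% were whole in units of a library's smallest step, at a tolerance of 0.01 fragment and 1e-06 of the value. Intervals (95%, exact) and the floor of 3 fragments for a count of 0 cover counting error only.

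Genes with at least 1 FPKM in at least 3 libraries were tested with limma 3.58.1 (lmFit, eBayes with trend; R 4.3.3) on log2(FPKM + 1), two-sided, Benjamini-Hochberg threshold 0.05, over 14072 genes; list genes were read from that fit. Self-tests ran on simulated data. Python 3.11.15, numpy 2.4.6, pandas 2.3.3, scipy 1.17.1 and matplotlib 3.10.9 did the rest. The alternatives were other pseudocounts, filters and scalings, eBayes without trend, voom, a term for sex, blocks for the replicate numbers, and fits without each library.

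The members, lists and tests were chosen with earlier results of these data known. Named are the members, Neu4, up to 4 genes per list by highest mean, and the 8 genes with the highest r to the proteases (no predicted-gene names). Mcpt2, Tpsg1, Mrgprb2, Meis2, Btk, Dpt, Mfap5, Pi16, Slc26a5, F13a1 and the cluster neighbours were named after their values were seen. Promoter sequences are from RefSeq (GRCm38.p6).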

Additional observations from a re-analysis of the deposited data

How the results depend on the processing

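The log2 fold changes of the 5 protease genes and Hdc were negative under each of 16 alternatives: -2.16 to -1.64 for Mcpt4, -1.57 to -1.13 for Cma1, -1.53 to -1.01 for Cpa3, -1.89 to -1.09 for Tpsb2, -3.76 to -0.41 for Tpsab1 and -0.75 to -0.16 for Hdc. Kit was negative in 15 of 16 and 0.01 without knockout 5. The median of the 5 protease genes was -1.82 with a pseudocount of 0.1, -1.87 with 0.01 and -1.89 with voom (a smaller pseudocount shrinks low genes less), and -1.50 to -1.09 with each library left out. The number of members that did not overlap was 6 to 9 with each library left out, 9 without knockout 2 and 8 without wild type 5. Fcer1a and Ms4a2, at few fragments, were among the 9. Groups of fewer libraries are apart more often, and the share over all genes was not taken for these fits, so nothing is read from these counts. The Cma1 to Cpa3 ratio was 1.57 to 1.61.

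The number of genes called over all genes, 47, was 15 with a pseudocount of 0.01, 19 with no filter, 19 with a mean FPKM of at least 0.5, 103 with FPKM of at least 5, 19 without trend, 381 with voom (164 lower and 217 higher in knockout) and 24 with sex as a covariate. It was 10 to 98 with each library left out: 10 and 98 without knockout 2 and 5, 13 without knockout 4, and 12, 11 and 16 without wild type 3, 4 and 5. Mcpt4 was called under 4 of the 16 (FPKM of at least 5, median-ratio scaling, voom, and without knockout 5) and lost its call without any other library. Of the listed genes, 1 (F13a1) was called with FPKM of at least 5, 10 with voom, and 0 to 4 with each library left out (4 without knockout 5). The causes were not tested. With a replicate block over the numbers 4 and 5, 22 genes and 5 listed genes were called. Only 2 pairs share a number (correlation of deviations 0.141 and 0.150). Pairs of unlike number were not compared, so these values cannot show whether a shared number marks a pairing.

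Depth limits Fcer1a, Ms4a2 and Tpsab1, which gave at most 5 fragments in any knockout library.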
